A study of Homo sapiens with 6 samples.

Results

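The receptors that carry proteins and RNAs through the nuclear pores were examined in cells in which the long noncoding RNA FAM83H-AS1 had been silenced. The 10 receptor genes were 6 for export, XPO1, XPO4, XPO6, XPO7, XPOT and CSE1L, and 4 for import, KPNB1, TNPO1, IPO5 and IPO7. They were taken by symbol from a table of RNA-Seq counts for 40173 genes, and all 10 were among the 15250 genes with enough counts to be tested. They were chosen by the measured difference between silenced and control cells in these same libraries, in which XPO7 was already known to be lower. Each difference between the groups in these 10 genes is therefore given as a description, with its standard error (SE) and no test.

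The cells were labelled as A549, a line derived from a human lung adenocarcinoma. Control cells received a negative control and silenced cells received a small interfering RNA (siRNA) against FAM83H-AS1, with 3 libraries in each group from RNA harvested on the day after transfection. The sources used here do not say which of the 2 siRNAs listed by the study the sequenced cells received. They do not say either whether the libraries came from separate cultures, so that the p-values below measure only the spread between these libraries. The label names 1 cell line, and the knockdown left part of the FAM83H-AS1 RNA in place.

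Library totals ranged from 9738291 to 17742643 counts, the deepest being control replicate 3. That library also differed most from the others of its group. The chi-square per degree of freedom between its counts and those of control replicates 1 and 2 was 29.9 and 25.4. It was 6.79 between control replicates 1 and 2 and 4.23 to 10.4 between silenced replicates. This measure of spread beyond counting noise grows with depth. FAM83H-AS1 itself was at 14.5, 16.0 and 17.3 CPM (CPM, counts relative to sequencing depth, with library totals normalized by TMM) in control replicates 1, 2 and 3 and at 4.59, 4.44 and 5.57 CPM in the silenced replicates, 30.6% of the control level. The keratins KRT8 and KRT18 of simple epithelium were high, from 951 CPM upward. AKR1C1 and NQO1, both known to be high in A549, were expressed in each library, with 1011 to 1412 and 1790 to 3170 counts. Several other genes went against the label. CDKN2A, a tumor suppressor gene that A549 is known to lack through a homozygous deletion, had between 521 and 955 counts in each library, and its neighbor MTAP had between 365 and 663. ALDH1A1, AKR1B10 and KRT19, all known to be well expressed in A549, reached only 2, 28 and 17 counts in the highest library. MTAP and ALDH1A1 were looked at after the values of the other markers had been seen. The summed level of the 6 epithelial and A549 markers was 3183 to 3760.2 CPM in the control libraries and 2891 to 2914 CPM in the silenced ones, a difference carried by KRT8 and KRT18, and its part in the results was not tested. Among markers of other cell types, CD3E and HBB were at 0 in every library, SFTPB, PTPRC, PECAM1 and HBA1 had at most 2 counts, and SFTPC and COL3A1 at most 13. CDH5 and COL1A1 were above this, with up to 75 and 502 counts. The summed fibroblast markers, nearly all COL1A1, were at 25.9 to 29.7 CPM in the control libraries and 28.0 to 37.6 CPM in the silenced libraries. The summed endothelial markers, nearly all CDH5, were at 3.08 to 4.49 CPM in the control libraries and lower, at 2.05 to 3.05 CPM, in the silenced ones, without overlap. The part of these markers in the results was not tested.

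As background, large cargo crosses the nuclear pore only when bound to a receptor. Most receptors belong to the importin-beta family, whose members bind the small GTPase Ran. Ran carries GTP in the nucleus and GDP in the cytoplasm, and this difference makes import receptors release their cargo inside the nucleus while export receptors take theirs up there. Tumor cells depend on these receptors, and XPO1 is the target of an approved class of cancer drugs.

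XPO7 (exportin 7, also called RANBP16) is an export receptor with a broad range of cargo that has been linked to nuclear maturation in red blood cell precursors, and it also works in import. Its gene occupies chromosome 8, bases 21919671 to 22006585, plus strand (GRCh38), on the short arm, whereas FAM83H-AS1 lies on the long arm. XPO7 was at 174, 188 and 194 CPM in control replicates 1, 2 and 3. In silenced replicates 1, 2 and 3 it was at 78.1, 80.7 and 89.6 CPM. The silenced libraries lay close together and far below every control library, at 44.7% of the control mean. Behind these levels stood 1697, 2174 and 3273 raw counts in control cells against 800, 873 and 1206 in silenced cells, so that counting noise was small. From group means of 185 ± 9.77 and 82.8 ± 6.04 CPM (SD, n = 3 each), the log2 fold change was -1.16 (SE 0.0802). Of all tested genes, 1.17% had a lower log2 fold change. The value for XPO7 stayed between -1.22 and -1.12 when any 1 library was left out and in every other fit that was run.

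**Figure D1:**
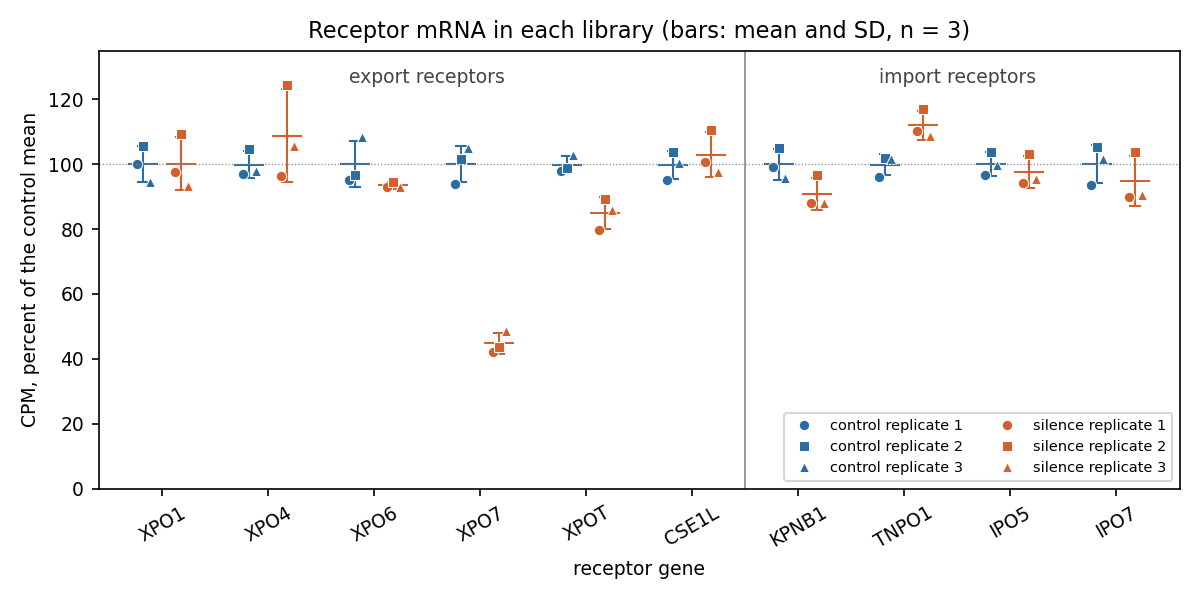
CPM of each receptor gene (x axis) in each library as a percent of that gene's control mean (y axis, linear from 0), with control libraries in blue, silenced libraries in orange, a symbol for each replicate, and horizontal and vertical bars for the mean and SD of 3 libraries. XPO7 stands at 44.7% of its control mean after silencing, while the means of the other 9 receptors lie between 85.1% and 112%.

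The other 9 receptors kept within a narrow band. Their log2 fold changes ran from -0.23 for XPOT to 0.17 for TNPO1, with a median of -0.04. The call rule in the study's methods asks for more than a 2-fold change beside an adjusted p under 0.05. By this rule XPO7 was the 1 receptor called, in the lower direction. Of all tested genes 2.14% were called, 0.997% as lower and 1.14% as higher. The study's results state an adjusted p under 0.01 for its own list. At that threshold and the same fold change, 148 of all tested genes were called here. At an adjusted p under 0.05 and any fold change, the receptors counted were XPO7 and XPOT, 2 of 10 beside a background of 17.0% of all tested genes, and XPOT lay so close to that threshold that it passed in the main fit but not when control replicate 1, 2 or 3 or silenced replicate 1 or 3 was left out. The groups did not overlap for 4 of the 10 receptors, lower in XPO6, XPO7 and XPOT and higher in TNPO1, beside 36.6% of all tested genes. None of these counts is read as a result, since the choice of the genes rested on the same comparison.

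XPOT (exportin-t) exports mature tRNAs. Its levels were 139, 140.4 and 146 CPM in the control libraries and 113, 127 and 122 CPM in the silenced libraries. Each silenced library was below each control library, by a distance small beside that of XPO7. The log2 fold change was -0.23 (SE 0.0723), and the silenced mean was 85.1% of the control mean.

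XPO6 (exportin 6) exports actin bound to profilin. It was at 319.7, 325 and 364 CPM in the control libraries and at 312, 318 and 312 CPM in the silenced libraries. The groups were separate but nearly touched, and control replicate 3 stood apart from the other libraries of its group. The log2 fold change was -0.10 (SE 0.0713).

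XPO1 (exportin 1 or CRM1), the receptor for leucine-rich export signals and the most widely used exporter of proteins, was level. Its values were 303, 319.9 and 286 CPM in the control libraries and 296, 331 and 283 CPM in the silenced libraries. Replicate 2 was the highest library in each group and replicate 3 the lowest. The group means were 303 ± 17.0 and 303 ± 25.3 CPM (SD, n = 3 each), with a log2 fold change of 0.00 (SE 0.0792).

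CSE1L, also known as CAS, returns importin alpha to the cytoplasm after import. It was at 268, 293 and 283 CPM in the control libraries and at 284, 312 and 275 CPM in the silenced libraries. These ranges overlapped, and the log2 fold change was 0.04 (SE 0.0736). XPO4 (exportin 4), which exports the translation factor EIF5A and also imports SOX2, had the lowest counts of the 10 receptors, from 284 to 499 per library. Its levels were 29.2, 31.5 and 29.5 CPM in the control libraries and 29.0, 37.5 and 31.8 CPM in the silenced libraries. The spread of XPO4 between silenced libraries, with a coefficient of variation of 13.1%, was the widest among the 10 receptors in either group, and silenced replicate 2 made it so. Its log2 fold change of 0.12 (SE 0.104) was about as large as its error.

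Among the import receptors, KPNB1 (importin beta 1), which carries classical nuclear localization signals together with importin alpha, was the most abundant. It was at 627, 665 and 606 CPM in the control libraries and at 557, 612 and 557 CPM in the silenced libraries. Silenced replicate 2 lay inside the control range, and the other silenced libraries lay below it. The log2 fold change was -0.14 (SE 0.0712).

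TNPO1 (transportin 1), which imports RNA-binding proteins such as HNRNPA1 by their proline-tyrosine signals, was the 1 receptor with every silenced library above every control library. Its levels were 243, 258 and 257 CPM in the control libraries and 279, 296 and 275 CPM in the silenced libraries. The log2 fold change was 0.17 (SE 0.0673), and the silenced mean was 112% of the control mean.

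IPO5 and IPO7 import ribosomal proteins, and IPO7 also imports linker histones as a pair with KPNB1. IPO5 was at 457, 491 and 472 CPM in the control libraries and at 446, 488 and 451 CPM in the silenced libraries. IPO7 was at 251, 282 and 272 CPM in the control libraries and at 241, 278 and 243 CPM in the silenced libraries. In both genes the groups overlapped, and in both replicate 2 was the highest library of its group. The log2 fold changes were -0.04 (SE 0.0685) for IPO5 and -0.08 (SE 0.0797) for IPO7.

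Levels of different genes were compared per kilobase of merged annotated exons (GENCODE 29). In the control libraries KPNB1 was highest, at 82.4 ± 3.92 CPM per kilobase (SD, n = 3), followed by CSE1L at 74.1 ± 3.27, IPO5 at 48.9 ± 1.78, XPO6 at 47.6 ± 3.44 and IPO7 at 37.0 ± 2.18. XPO7 ranked 6 at 26.8 ± 1.41 CPM per kilobase, next to XPO1 at 25.9 ± 1.45. TNPO1 at 21.1 ± 0.726, XPOT at 19.2 ± 0.487 and XPO4 at 2.86 ± 0.12 CPM per kilobase were lowest. The control ranges of neighbors in this order were apart except for IPO5 with XPO6 and for XPO7 with XPO1, so these pairs could not be ranked. In the silenced libraries XPO7 was at 12.0 ± 0.875 CPM per kilobase and ranked 9, above XPO4 alone. The order depends on the length taken: per kilobase of coding sequence, XPO7 ranked 8 and XPO1 ranked 5 in the control libraries.

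**Figure D2:**
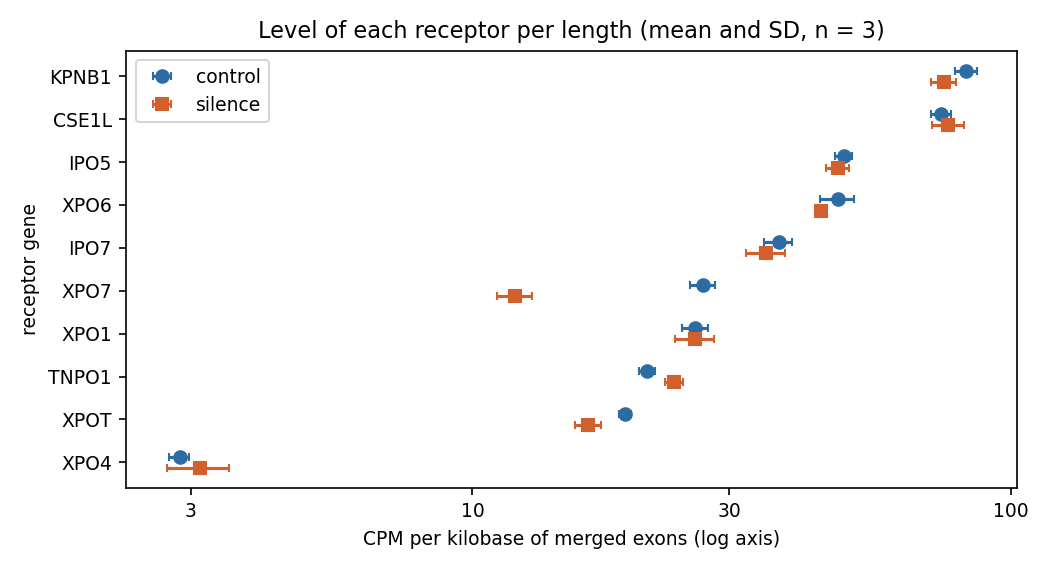
CPM per kilobase of merged exons (x axis, log scale) for each receptor gene (y axis, ordered by control level), with blue circles for the control mean, orange squares for the silenced mean, and bars for the SD of 3 libraries. XPO7 moves from 26.8 to 12.0, past TNPO1 and XPOT, and the other receptors stay near their control level. XPO7 and XPO1 could not be ranked in the control libraries.

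Seen as a share of the level per kilobase, XPO7 made up 6.78%, 6.84% and 7.22% of the sum of the 10 receptors in control replicates 1, 2 and 3. It made up 3.24%, 3.06% and 3.72% in the silenced replicates. Of the 6 export receptors, XPO7 made up 13.6 ± 0.268% in the control libraries and 6.74 ± 0.671% in the silenced libraries (SD, n = 3 each). Without XPO7, the CPM of the other 9 receptors summed to 2719 ± 85.2 in the control and 2636 ± 143 in the silenced libraries, ranges that overlapped. In bulk RNA, a lower level in each cell and fewer cells with the transcript cannot be told apart.

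The pattern of XPO7 over the 6 libraries was compared with that of 12131 genes having at least 50 counts per library on average. By Pearson's r of log2 CPM, the most alike were FAM83H-AS1 (0.999), AP2M1 (0.998), ALDH1A3 (0.998), NUP93 (0.996) and C8orf33 (0.995). All of these were lower after silencing, and any gene whose groups are far apart beside their spread gets a high r over these 6 libraries. AP2M1 is a subunit of a clathrin adaptor, ALDH1A3 an aldehyde dehydrogenase and NUP93 a structural subunit of the nuclear pore. Of the other receptors, XPOT had the highest r with XPO7, 0.933, and TNPO1 the lowest, -0.874.

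The 3′-untranslated regions (3′-UTRs) were searched for the word CCAATAA, which earlier work on these libraries had found more often in mRNAs that were lower after silencing, so that its presence in lower mRNAs here is no independent evidence. It was read on the mRNA strand only. The word was present in XPO7 and IPO7 and in none of the other 8 receptors, and in 12.6% of 12048 tested genes with an annotated 3′-UTR. The 3′-UTR of the XPO7 transcript ENST00000252512.13 has 1497 bases with the word at base 954 and again at base 1471. From the start of the later copy to the annotated end there are 27 bases, the word included. The shorter 3′-UTR of ENST00000433566.8, with 1197 bases, holds only the copy at base 954. Both copies are followed by an A, so that each overlaps AATAAA, the hexamer that directs cleavage and polyadenylation. IPO7 holds the word once, at base 1585 of the 2932 bases in ENST00000379719.7, on the plus strand at chr11:9446768-9446796 (GRCh38), without an overlap with AATAAA. This site is shown as the receptor that shares the word with XPO7 but not its change, with the word in capitals.
IPO7 3′-UTR site: tttcttgtataCCAATAAttaagccacta
The log2 fold changes of these genes were -1.16 for XPO7 and -0.08 for IPO7. The median log2 fold change was -0.09 over genes with the word and 0.01 over the others. At least 2 copies were found in 149 tested genes, 1.24% of those searched, with a median of -0.09, and XPO7 had the second lowest log2 fold change among them.

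The same 3′-UTRs were searched for the words that pair with bases 2 to 8 of each strand of the 2 siRNAs listed against FAM83H-AS1. These words were ATGTTCT and AGATTAC for siRNA1 and GAAAGAA and TCAATAT for siRNA2, and the 3′-UTRs of XPO7 held none of the 4. ATGTTCT was present in XPO4, XPO6 and TNPO1 and in 20.2% of the tested genes. AGATTAC was present in none of the 10 receptors and in 9.21% of the tested genes. GAAAGAA was present in XPO4, XPOT, KPNB1, TNPO1 and IPO5 and in 26.0% of the tested genes, and TCAATAT was present in TNPO1 and in 12.4%. The receptors with long 3′-UTRs, TNPO1 with 8060 bases and XPO4 with 6393, held the most of these words. Over the tested genes, the median log2 fold change was 0.05 to 0.06 with each word and -0.01 to 0.00 without it. The part of these words in the results was not tested.

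Copies of receptor genes could share reads with them. Such rows existed for IPO7, TNPO1 and XPOT and none was listed under the XPO7 symbol. Their counts were small, from 0.892% of the IPO7 counts in IPO7P1 to 7.81% of the XPOT counts in XPOTP1. TNPO1P2 had 22, 22 and 24 counts in control cells and 35, 54 and 39 counts after silencing, and it was higher by 1.04 on the log2 scale (SE 0.292, adjusted p = 0.0334 by edgeR), though it did not pass without control replicate 2 or 3 or silenced replicate 1 or 2. TNPO1P1, with a log2 fold change of 0.45, and IPO7P1, with -0.64, did not pass the test (adjusted p = 0.208 and 0.152 by edgeR). How reads with several matches were assigned is not given in the sources used here, so the values of these copies are uncertain. On the opposite strand, antisense genes share exon bases with KPNB1 (267 bases), TNPO1 (254) and XPO1 (494), and reads of such pairs cannot be told apart without strand, whereas XPO7 overlaps no other gene in GENCODE 29. SNORA23, a small nucleolar RNA encoded in an intron of IPO7, was at 1.64, 3.97 and 21.3 CPM in the control libraries and at 0.879, 0.925 and 1.11 CPM in the silenced libraries, and it shares no exon bases with its host. It was looked at because earlier work had listed it as lower, and control replicate 3 sets the size of its difference: its log2 fold change was -3.25 with that library and -1.53 without it.

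To place the receptors among the genes they work with, 77 further genes of nuclear transport were sorted into 5 lists, and all 77 could be tested. Adjusted over all 15250 genes by edgeR, 11 of them were lower and 1 was higher after silencing, 15.6% beside 17.0% of all tested genes. Only KPNA7 also passed a fold change of 2. Over all genes the calls at any fold change were split more evenly, with 8.27% of tested genes lower and 8.75% higher.

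The other importin-beta family receptors numbered 10, of which 1 fell, none rose and 9 did not pass the test. The share that passed was below the 17.0% of all tested genes. IPO4, which imports histones and ribosomal proteins, fell from 117 ± 6.27 to 82.8 ± 3.97 CPM (SD, n = 3 each). Its log2 fold change was -0.50 (SE 0.0765, adjusted p = 0.00199 by edgeR), and the groups did not overlap. RANBP17, the closest relative of XPO7, had low levels of 4.52, 6.05 and 8.22 CPM in the control libraries and 6.93, 8.23 and 7.51 CPM in the silenced libraries. These overlapped (log2 fold change 0.24, SE 0.211, adjusted p = 0.459 by edgeR). XPO5, the exporter of microRNA precursors, had a log2 fold change of 0.02 (adjusted p = 0.895 by edgeR), IPO8, the relative of IPO7, 0.12 (adjusted p = 0.372) and TNPO2, the relative of TNPO1, -0.15 (adjusted p = 0.186). The median of this list was 0.00, as was that of all tested genes.

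**Figure D3:**
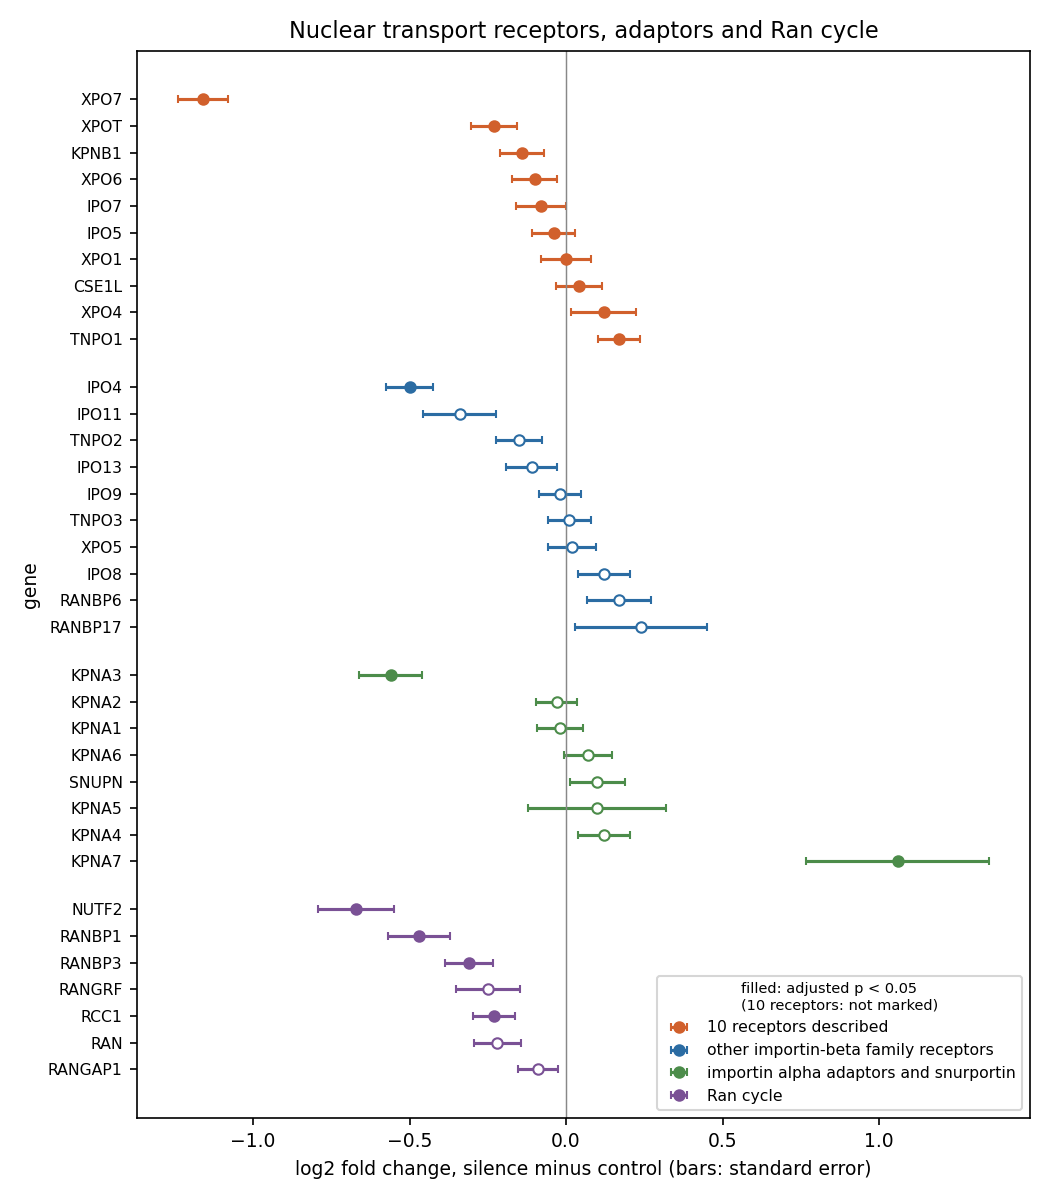
Log2 fold change, silence minus control (x axis), with its standard error as a bar, for each gene (y axis) of the 10 receptors in orange, the other importin-beta family receptors in blue, the importin alpha adaptors with snurportin in green and the Ran cycle in purple. Filled blue, green and purple points have an adjusted p under 0.05, and all points of the 10 receptors are filled without regard to a test. XPO7 at -1.16 is the lowest of the genes shown, and KPNA7 at 1.06 the highest.

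Importin alpha adaptors link cargo with classical signals to KPNB1, and snurportin does so for spliceosomal RNPs. Of these 8 genes, 1 fell, 1 rose and 6 did not pass, so that 25.0% passed beside 17.0% of all tested genes. KPNA3 (importin alpha 4), an adaptor that also carries NF-kappaB subunits, fell from 43.6, 50.2 and 45.1 CPM to 32.0, 34.7 and 27.7 CPM. Its log2 fold change was -0.56 (SE 0.101, adjusted p = 0.00467 by edgeR). KPNA7, an adaptor known mainly from the embryo, rose from 1.95, 2.94 and 2.07 CPM to 6.44, 3.14 and 4.91 CPM, a log2 fold change of 1.06 (SE 0.292, adjusted p = 0.0315 by edgeR). These rest on few reads, 19 in the lowest library, and the test was no longer passed without control replicate 1 or 3 or without silenced replicate 1 or 3. KPNA2, the most abundant adaptor in many tumors, was at 262 ± 10.2 and 258 ± 6.78 CPM (SD, n = 3 each), with a log2 fold change of -0.03 (adjusted p = 0.829 by edgeR).

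The Ran cycle list held 7 genes, of which 4 fell, none rose and 3 did not pass. Those that passed were 57.1% of this list, beside 17.0% of all tested genes. In all 7 the silenced libraries were wholly below the controls, beside 17.5% of all tested genes, and the median log2 fold change was -0.25. NUTF2, which returns Ran to the nucleus, fell from 162, 130.2 and 139 CPM to 92.8, 74.4 and 104 CPM, a log2 fold change of -0.67 (SE 0.121, adjusted p = 0.00476 by edgeR). RANBP1, a cofactor of GTP hydrolysis by Ran, fell by 0.47 on the log2 scale (SE 0.099, adjusted p = 0.00989 by edgeR). RANBP3, a cofactor of export by XPO1, fell by 0.31 (SE 0.0767, adjusted p = 0.0195 by edgeR), and RCC1, the nuclear exchange factor of Ran, by 0.23 (SE 0.0665, adjusted p = 0.0344 by edgeR). RCC1 no longer passed when any 1 of the 6 libraries was left out, nor with library size only (adjusted p = 0.0856 by edgeR). RANBP3 did not pass without silenced replicate 1 or 2. RAN itself was at 524, 579 and 533 CPM in the control libraries and at 433, 498 and 470.1 CPM in the silenced libraries, with a log2 fold change of -0.22 and an adjusted p of 0.0651 by edgeR. RAN passed the test by DESeq2 (adjusted p = 0.0324), with the replicate number as a block (0.0183 by edgeR) and among all genes with at least 1 count (0.0364 by edgeR). It did not pass when any 1 of the 6 libraries was left out (adjusted p from 0.0501 to 0.244 by edgeR). Nor did RAN pass with library size only (0.128), with RLE size factors (0.0604) or with at least 10 counts in every library (0.0623, all by edgeR).

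Nucleoporins build the pore. Of 32 nucleoporin genes, 3 fell, none rose and 29 did not pass. The share that passed was 9.38%, beside 17.0% of all tested genes, and the list had a median of 0.00. NUP93, a subunit of the inner ring, fell from 159, 153 and 164 CPM to 90.3, 90.1 and 96.8 CPM, a log2 fold change of -0.78 (SE 0.0714, adjusted p = 1.03e-04 by edgeR). The log2 fold change of NUP93 stayed between -0.82 and -0.76 with any 1 library left out. NUP58 (NUPL1 in the table), of the central channel, fell by 0.36 on the log2 scale (SE 0.0743, adjusted p = 0.00904 by edgeR). NUP188, a partner of NUP93, fell by 0.28 (SE 0.074, adjusted p = 0.0266 by edgeR) but did not pass without control replicate 3, silenced replicate 1 or silenced replicate 3.

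Bulk mRNA leaves the nucleus through NXF1 and its adaptors, which are not of the receptor family. Of 20 genes for this route, 2 fell, none rose and 18 did not pass. The share that passed was below the 17.0% of all tested genes. CHTOP, a subunit of the TREX complex, fell by 0.34 on the log2 scale (SE 0.0911, adjusted p = 0.0285 by edgeR). MCM3AP, the scaffold of the TREX-2 complex, which has an antisense gene that could share reads with it, fell by 0.24 (SE 0.0667, adjusted p = 0.0339 by edgeR). MCM3AP no longer passed when any 1 of the 6 libraries was left out, nor with library size only (adjusted p = 0.0785 by edgeR). CHTOP did not pass without control replicate 1 or 2 or without silenced replicate 1 or 2.

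**Figure D4:**
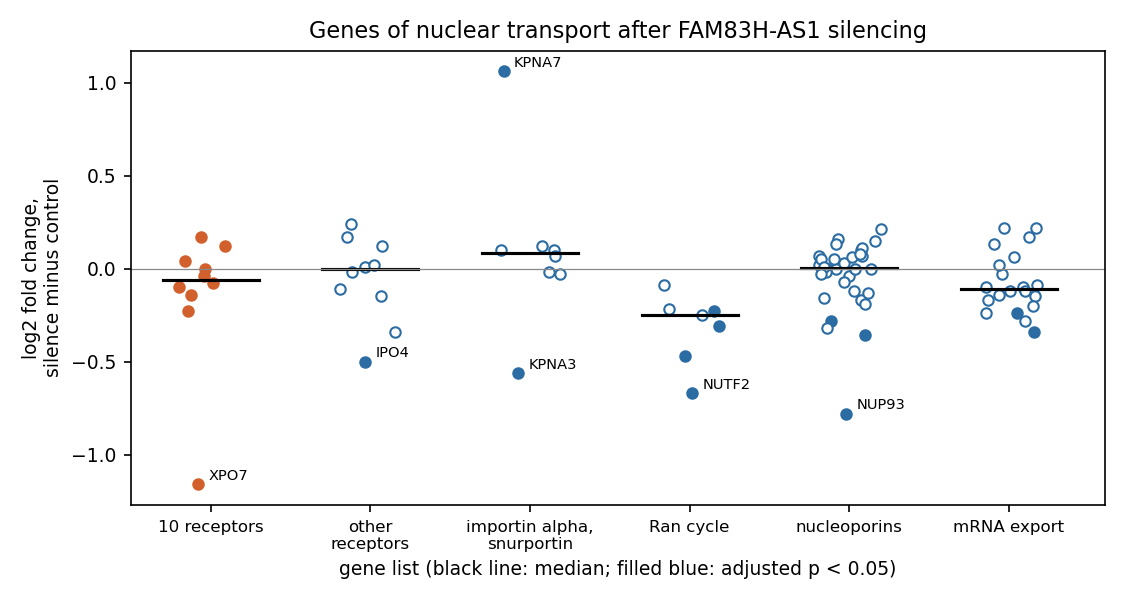
Log2 fold change, silence minus control (y axis), of each gene of the 10 receptors (orange) and of the 5 further lists of nuclear transport genes (blue, x axis), with a black line at the median of each list and filled blue points for an adjusted p under 0.05. The Ran cycle lies wholly below 0 with a median of -0.25, and the points furthest from 0 are XPO7 at -1.16 and KPNA7 at 1.06.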

How the data were processed

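Total RNA was made into 6 Ion Proton libraries, 3 per group, and the authors mapped and counted reads per gene with MapSplice. The submitters' processing notes name GRCh37. Strand, annotation and the treatment of reads with several matches are not given in the sources used here. The deposited values are raw counts for 40173 symbols, without normalization. Groups and replicate numbers were taken from the sample titles.

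Counts were filtered with filterByExpr, normalized by TMM and tested with the quasi-likelihood F test of edgeR 4.0.16 (R 4.3.3), with Benjamini-Hochberg adjustment over 15250 genes. SEs were obtained by dividing the size of each log2 fold change by the root of its F statistic. Alternatives, including DESeq2 1.42.0, are given in the closing section. Symbols were joined to GENCODE 29 on GRCh38 for positions, lengths and 3′-UTRs, 29712 of 40173 symbols matching 1 gene. The fit was tested on simulated data with a common dispersion of 0.0108 for all genes. Of 50 genes changed by 0.5 on the log2 scale, 22 passed, and 21 of the 37 with a mean of at least 50 counts. Of 50 genes changed by 1.0, 44 passed. The simulation changed far fewer genes than the 17.0% that passed in the real data, so its adjusted p-values were stricter. Its shares therefore need not hold for the real fit, where RCC1 at -0.23 and MCM3AP at -0.24 passed. A change can still be missed in a gene that did not pass, above all where the SE is large, as in RANBP17 (SE 0.211).

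The members, lists and searches were chosen with earlier results of these data known. Named were all receptors and related genes fixed by name, every list gene with an adjusted p under 0.05 (at most 8 per list), copies of the receptors and the 5 genes most like XPO7. The result of 1 marker is not reported here.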

Additional observations from a re-analysis of the deposited data

How the results depend on the processing

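XPO7 was the 1 receptor called in every alternative that was run. The receptors were chosen by this same contrast, so this repeats the choice and is no test of it. All 120 alternative log2 fold changes of the 10 receptors stayed within 1 SD of the value reported (the SD of log2 CPM between libraries, pooled over the groups). This is a description and no independent support, since the alternatives reuse the same libraries. Leaving out 1 of 3 libraries moves a group mean by less than that SD. The number of receptors with an adjusted p under the threshold was 1 in place of 2 with library size only (no TMM). It was also 1 at an adjusted p under 0.01, and 1 to 2 with a library left out, XPOT being the gene lost. This number stayed at 2 by DESeq2, with RLE size factors and with the replicate number as a block. The same held among all genes with at least 1 count and with at least 10 counts in every library. For the 77 further transport genes, the replicate number as a block gave 19 genes in place of 12, an adjusted p under 0.01 gave 6 (0 also past a fold change of 2, in place of 1), and leaving out a library gave 6 to 10, with 0 to 1 past a fold change of 2, silenced replicate 1 being the library that gave 6. Over all genes, 326 were called, 583 among all genes with at least 1 count (245 higher and 338 lower, against 174 and 152), 199 with at least 10 counts in every library, 148 at an adjusted p under 0.01 and 200 to 335 with a library left out, lowest without silenced replicate 1. At any fold change 2595 passed, 903 at an adjusted p under 0.01 and 1225 to 1962 with a library left out. The replicate number as a block gave 3449 in place of 2595, and 380 called genes in place of 326. Among all genes with at least 1 count, 3449 also passed at any fold change. Same-numbered samples had correlations of 0.142, 0.17 and 0.063 in their deviations from the group means, and each library correlated best with its own number, a hint from the data and not from the design that the numbers pair the samples. Small values changed sign: CSE1L from 0.04 to -0.01 without silenced replicate 2, XPO1, at 0.00, to between -0.07 and 0.05 with a library left out, XPO5 to -0.03 and -0.02 without control replicate 1 or silenced replicate 2 (-0.03 to 0.07 over the libraries left out), KPNA2 to 0.01 and XPOTP1 to 0.03 with library size only, IPO7P2 to -0.02 without silenced replicate 2 (-0.02 to 0.19), and XPOTP1, with a library left out, to between -0.19 and 0.11. XPO7 ranked 8 per coding length and 7 per longest transcript, and 6 to 7 with a control library left out. In the longest 3′-UTR of each gene, CCAATAA was present in 11.3% of genes, and the words of siRNA1 in 18.6% and 8.22% and of siRNA2 in 24.0% and 11.3%.

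KPNA7 and RANBP17 had 19 to 139 counts per library, where counting error is larger than for the 10 receptors, which had at least 284.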
